A study of Homo sapiens with 6 samples.

Results

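The genes described here encode respiratory complexes II to V of the mitochondrion, with their assembly factors and the electron carrier cytochrome c, and 66 of the 33616 genes measured were members. They were chosen by name: a row of the array table belonged if its single gene symbol matched a fixed pattern for succinate dehydrogenase (SDH and SDHAF genes), the cytochrome bc1 complex (UQCR and UQCC genes, CYC1, BCS1L), cytochrome c oxidase (COX subunits and assembly factors, SCO1, SURF1), ATP synthase (ATP5 genes) or CYCS. The pattern matched 159 genes, of which 93 were pseudogenes and were left out. Another 6 rows paired a matching symbol with the symbol of another gene, and no gene was named from them. The cells were H295R, a human adrenocortical carcinoma line, and the groups were cells kept for 24 h in CX-4945 at 5 µM, an inhibitor of the kinase CK2, or in DMSO, its solvent. There were 3 arrays with CX-4945 and 3 with DMSO, all from the same line at the same time point, and no genotype differed between them. Total RNA was labelled by a whole-transcript method and each array gave 1 intensity per gene row. Whether replicates came from separate cultures is not stated, so p-values measure only the spread among these arrays, and that spread may be technical.

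The respiratory chain passes electrons from nutrients to oxygen and uses the energy to pump protons across the inner mitochondrial membrane. Complex II oxidises succinate and hands its electrons to ubiquinone, complex III passes them on to cytochrome c, complex IV gives them to oxygen, and complex V lets protons flow back to make ATP. All subunits of complex II are encoded in the nucleus, whereas complexes III, IV and V also hold subunits encoded in mitochondrial DNA. In the adrenal cortex mitochondria also hold the first and last enzymes of cortisol synthesis, which draw on electrons from NADPH.

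Most members that changed were lower with CX-4945. By limma, at an adjusted p under 0.05 (Benjamini-Hochberg, across the 33616 genes), 29 of 66 members (43.9%) fell and 2 rose, whereas 35 did not pass. Over all genes 22.8% were called, 12.5% lower and 10.3% higher, and over protein-coding genes 32.2% were called, 20.3% lower and 11.9% higher. Rows of higher intensity were called more often, so a closer background is the 6451 protein-coding genes at or above the lower quartile of member intensities, of which 52.7% were called, 31.1% lower and 21.6% higher. In that range 26 of 49 members (53.1%) were lower and 2 were higher. The median log2 difference (CX-4945 minus DMSO) was -0.42 over the members, against 0.02 over all genes and -0.09 over the protein-coding genes at member levels. Of the falls 15 were 2-fold or more, as was 1 of the rises. The share of all genes called at that size was not counted, so these counts have no background beside them. The CX-4945 and DMSO arrays did not overlap for 34 members, nor for 36% of all genes. In such bulk RNA a lower level can come from fewer cells that express a gene or from less RNA per cell, and these cannot be told apart.

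The complexes differed in how many members fell and in how far they fell, as described here without a test between complexes. In complex V 10 of 17 members were lower (median log2 difference -0.71). In complex III the count was 7 of 16 lower and 1 higher (median -0.50). For complex IV the count was 9 of 24, with a median of -0.26. Complex II had 2 of 7 lower and a median of -0.08. This order depended on dim members: with either filter on dim genes complex IV had 9 of 18 lower and a median of -0.51, close to complex III at -0.50, and complex II had a median of -0.29. With these filters 24.2% and 24.4% of all genes kept were lower. Structural subunits fell in 20 of 43 cases and rose in none (also none at an unadjusted p under 0.05), with 35 of 43 log2 differences below 0. The share of all genes with a difference below 0 was not counted. Counts of signs, here and below, therefore have no background beside them and depend on the scaling. Assembly factors of complexes II to IV went both ways, with 7 of 20 lower and 1 higher and a median of 0.03.

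**Figure D1:**
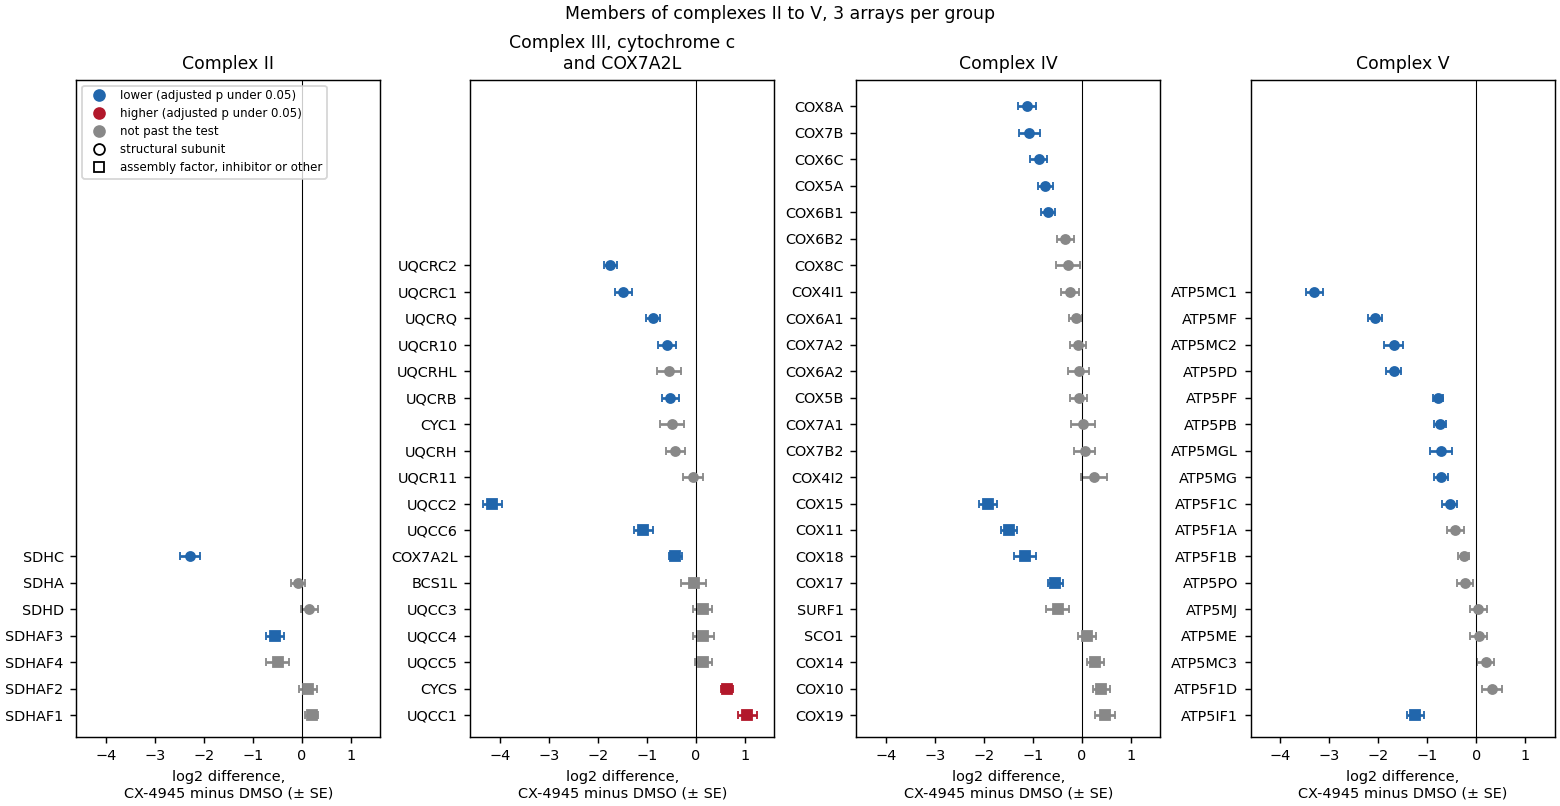
Log2 difference (CX-4945 minus DMSO, ± SE of the fit, horizontal axis) of each of the 66 members, in 1 panel per complex, with circles for structural subunits and squares for assembly factors, the inhibitor, CYCS and COX7A2L. ATP5MC1 lies at -3.30 and SDHC at -2.29, the point of UQCC2 at -4.15 rests on treated values below background (a fall of at least 8.93-fold), and the only rises past the test are UQCC1 at 1.05 and CYCS at 0.64.

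The 3 CX-4945 arrays did not carry the falls to the same depth. Averaged over complex V members, log2 intensity minus the DMSO mean was -0.98, -0.54 and -0.91 on CX-4945 replicates 1, 2 and 3. The same averages were -0.74, -0.48 and -0.74 for complex III (with UQCC2 at its measured values), -0.50, -0.24 and -0.47 for complex IV, and -0.56, -0.25 and -0.45 for complex II. Replicate 2 was thus the shallowest in each complex, and over all genes it also correlated less with the other treated arrays (r = 0.988 and 0.990) than they did with each other (0.994). Without it 35 members were lower, 13 of them in complex V, and 2 were higher. Over all genes 14% were then lower, against 12.5% with all arrays. Leaving out any other array gave 22 to 25 members lower and 2 higher, with 9.87% to 11.4% of all genes lower. The scale of the arrays also mattered: the median log2 difference of all genes moved to -0.09 with quantile normalization over all rows and to -0.11 with equal array medians. Members lower numbered 30 and 31 with these scalings, with 2 higher in each, and a log2 difference near 0 can change sign with the scaling. The share of all genes lower was 15.7% with each scaling, against 12.5% as deposited. The share of rises among calls over all genes was 45.3% as deposited, 33.2% with quantile normalization and 32.4% with equal medians.

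**Figure D2:**
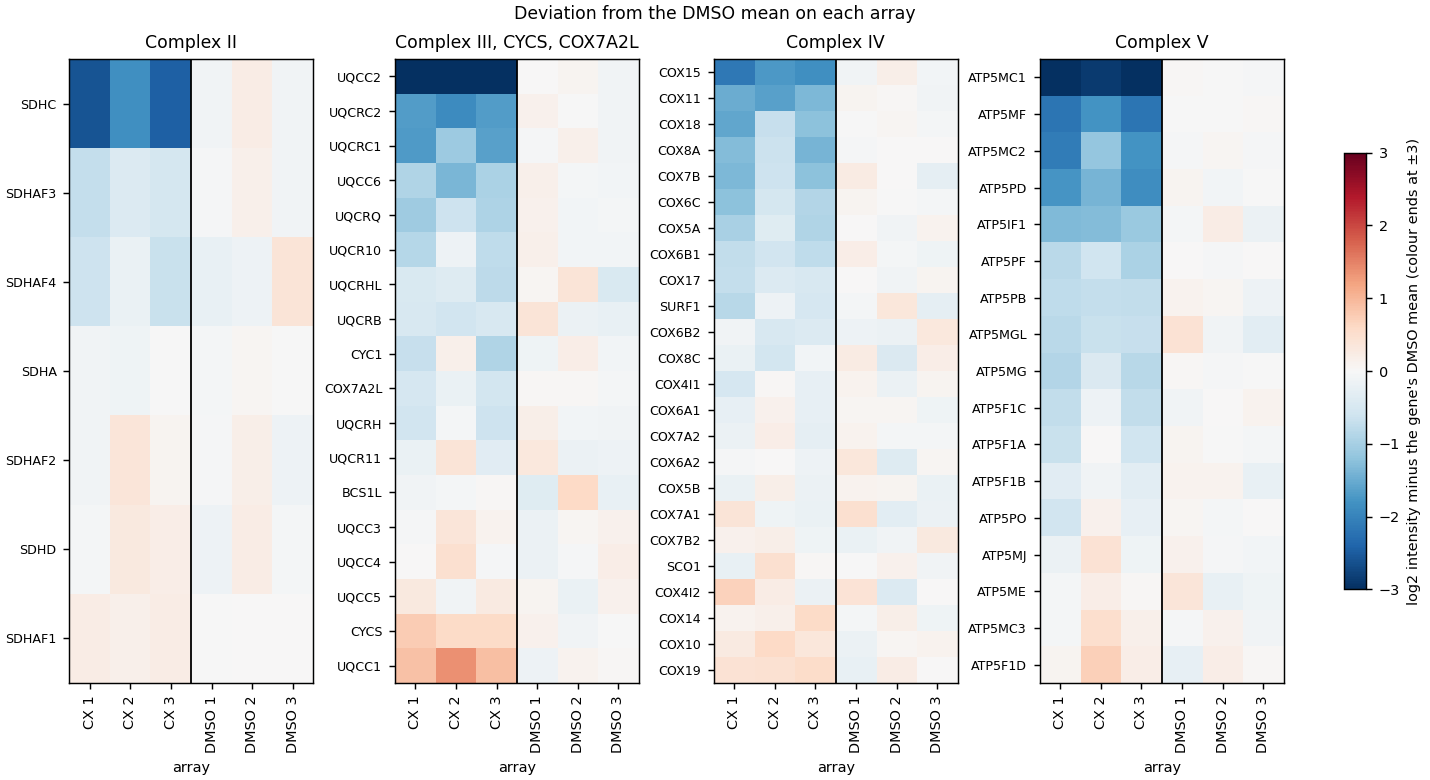
Log2 intensity minus the gene's DMSO mean (colour) for each member (rows, sorted by the treated mean) on the 3 CX-4945 arrays (left) and the 3 DMSO arrays (right). The middle treated column, CX-4945 replicate 2, is paler than its neighbours in many rows, as in complex V where the column averages are -0.98, -0.54 and -0.91.

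Complex II was marked by a fall in a single measured subunit. SDHB, which the name pattern also covers, is not among the members, so nothing can be said of its level. SDHC, which with SDHD anchors the enzyme in the membrane and holds its heme, had intensities of 1251, 2103 and 1370 with CX-4945, against 6933, 8664 and 6951 with DMSO. The groups lay far apart, and the fall was 4.88-fold (log2 difference -2.29 ± 0.21 SE, limma adjusted p = 5.57e-06). Its partner SDHD gave 2308, 2938 and 2748 with CX-4945 and 2146, 2794 and 2285 with DMSO, and the groups overlapped (log2 difference 0.15 ± 0.17, adjusted p = 0.639). SDHA, the flavin subunit that oxidises succinate, was at 7245, 7058 and 7661 with CX-4945 and at 7468, 8066 and 7692 with DMSO (log2 difference -0.08 ± 0.14, adjusted p = 0.757). Within each array, the SDHC row therefore moved against the SDHD row by a log2 difference of -2.43 ± 0.16 and against the SDHA row by -2.20 ± 0.27 (SE, n = 3 each). Across 6 such pairs of rows examined here, a two-sided exact permutation test gave p = 0.1 for each, also after adjustment over the pairs. This is the smallest p that 3 against 3 arrays allow. The pairs were not set beforehand and join rows whose log2 differences already lay apart, so this test adds no support.

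Among the complex II assembly factors, SDHAF3, which helps the iron-sulfur clusters into the enzyme, had 648.7, 796.7 and 739.2 with CX-4945 and 1031, 1175 and 977.8 with DMSO. This was a fall of 1.46-fold with no overlap (adjusted p = 0.0453). It rested on narrow margins, since the call was lost on leaving out any array but CX-4945 replicate 2 (adjusted p = 0.0835 to 0.176). SDHAF4 (log2 difference -0.50) and SDHAF2 (0.12), which act on the flavin subunit, did not pass. SDHAF2 had a dimmer row with a log2 difference of 0.85 ± 0.18 (adjusted p = 0.00453 over all named rows), so its rows disagreed. SDHAF1 (0.20) lay below the background level in both groups. That level, an intensity of 84.2, was the 95th percentile of 374 olfactory receptor genes, a choice made after seeing the data.

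In complex III 5 of 9 measured subunits fell, and every one had a log2 difference below 0 on the deposited scale. The core proteins UQCRC2 and UQCRC1, which form the matrix side of the complex, fell most. UQCRC2 was at 10825, 9418 and 10911 with CX-4945, against 37922, 34460 and 32224 with DMSO, a fall of 3.36-fold (log2 difference -1.75 ± 0.13, adjusted p = 1.37e-06). UQCRC1 gave 4170, 6353 and 4418 with CX-4945 and 13279, 15045 and 12667 with DMSO, a fall of 2.79-fold (adjusted p = 5.55e-05). In both genes even the highest treated value was below the lowest DMSO value. The small subunit UQCRQ fell 1.84-fold, with 13405, 18294 and 14707 in treated cells and 30998, 26514 and 27187 in DMSO (adjusted p = 7.48e-04). UQCR10 (log2 difference -0.59 ± 0.18, adjusted p = 0.0349) and UQCRB (-0.52 ± 0.17, adjusted p = 0.0440), also small subunits, fell by less. Their calls were less firm: UQCR10 was lost on leaving out any array but CX-4945 replicate 2 (adjusted p = 0.0747 to 0.145), and UQCRB on leaving out CX-4945 replicate 1 or 3 (0.0759 and 0.0978) or DMSO replicate 1 or 2 (0.214 and 0.0668).

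The other subunits of complex III did not pass. CYC1, which carries the heme of cytochrome c1, had a log2 difference of -0.49 with an SD of 0.56 over the treated arrays, and UQCRH, the hinge protein, one of -0.42. Without CX-4945 replicate 2 both passed (adjusted p = 0.00189 and 0.00675). UQCR11 was at -0.05 and changed sign under some alternatives. UQCRHL (-0.55) is a near copy of UQCRH, so signal may be shared between their rows. UQCRHL passed only without DMSO replicate 3 (adjusted p = 0.0499) and with quantile normalization over all rows (0.0485).

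The assembly factors of complex III held a deep fall and the highest rise of all members past the test. UQCC1 and UQCC2 form a pair that binds newly made cytochrome b, the subunit encoded in mitochondrial DNA. UQCC2 had intensities of 38.2, 43.1 and 46.3 with CX-4945, against 759.2, 800.1 and 700.5 with DMSO (log2 difference -4.15 ± 0.19, adjusted p = 3.09e-08). All 3 treated values lay below the background level, so the level is only bounded there and the fall was at least 8.93-fold against that level (17.7-fold as measured). UQCC1 gave 1915, 2727 and 1955 with CX-4945 and 949.2, 1130 and 1070 with DMSO, a rise of 2.07-fold (log2 difference 1.05 ± 0.19, adjusted p = 0.00128). The partners thus went opposite ways, with no overlap between the groups in either. UQCC6, a small inner membrane protein needed for complex III, fell 2.10-fold, with 226.2, 164.1 and 219.2 with CX-4945 and 469.6, 403.4 and 396.0 with DMSO (adjusted p = 0.00187). UQCC3 (0.14), UQCC4 (0.15), UQCC5 (0.15) and BCS1L (-0.04), which inserts the iron-sulfur protein, did not pass. BCS1L had an SD of 0.52 over the DMSO arrays, with 1 of them at 453.6 and the others at 230.8 and 256.1.

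Promoters of UQCC2, UQCRC1 and UQCC1 are shown because the first 2 genes fell and the last rose, and all 3 hold a match to the motif of NRF1, a transcription factor known for driving genes of the respiratory chain. Each runs from 250 bases before to 50 after the annotated start (RefSeq, GRCh38.p14, 5′ to 3′ on the gene's strand). Capitals mark matches on either strand to GCGCA, any base and GCGC for NRF1, CCGGAAG for ETS factors, AAGATGGCG for YY1 and TGACGTCA for the cAMP response element. No marked matches overlap one another. UQCC2 lies at chr6:33711651-33711950, minus strand, UQCRC1 at chr3:48609597-48609896, minus strand, and UQCC1 at chr20:35411924-35412223, minus strand.
UQCC2: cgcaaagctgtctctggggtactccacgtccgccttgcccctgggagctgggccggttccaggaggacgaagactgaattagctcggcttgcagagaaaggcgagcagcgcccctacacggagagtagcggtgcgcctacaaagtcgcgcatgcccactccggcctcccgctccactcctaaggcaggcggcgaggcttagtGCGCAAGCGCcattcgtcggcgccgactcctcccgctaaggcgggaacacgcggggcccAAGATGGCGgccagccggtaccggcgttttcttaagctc
UQCRC1: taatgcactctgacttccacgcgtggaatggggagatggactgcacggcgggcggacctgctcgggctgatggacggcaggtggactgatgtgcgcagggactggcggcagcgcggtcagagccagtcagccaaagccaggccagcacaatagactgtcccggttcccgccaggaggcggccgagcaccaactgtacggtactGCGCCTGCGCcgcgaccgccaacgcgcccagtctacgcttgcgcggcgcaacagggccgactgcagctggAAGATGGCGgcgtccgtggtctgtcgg
UQCC1: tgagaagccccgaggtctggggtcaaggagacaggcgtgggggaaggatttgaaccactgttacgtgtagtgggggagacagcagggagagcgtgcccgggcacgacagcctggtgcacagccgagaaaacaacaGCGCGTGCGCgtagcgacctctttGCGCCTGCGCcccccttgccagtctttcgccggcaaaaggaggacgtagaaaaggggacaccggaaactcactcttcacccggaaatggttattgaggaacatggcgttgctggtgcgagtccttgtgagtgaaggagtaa
UQCC2 and UQCRC1 each hold 1 NRF1 and 1 YY1 match, and UQCC1 holds 2 NRF1 matches. The annotation matched 52 members to a promoter. An NRF1 match was present in 17 of them (32.7%), against 5.78% of all 35116 promoters and 7.39% of those of protein-coding genes. An ETS match was present in 20 (38.5%), against 10.3% of all promoters and 12.8% of the protein-coding ones. YY1 matches were found in 4 members (7.69%, against 1.75% of all promoters and 2.41% of the protein-coding ones). Split by call, an NRF1 match was held by 7 of 23 promoters of members that fell (30.4%) and by 10 of 29 of the other members (34.5%), an ETS match by 9 (39.1%) and 11 (37.9%), and a YY1 match by 3 (13%) and 1 (3.45%). No difference between these shares was tested.

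Complex IV showed its deepest falls among assembly factors. COX15, which with COX10 makes heme A, the heme of this complex, had 313.0, 418.9 and 387.3 with CX-4945 and 1302, 1585 and 1307 with DMSO. It fell 3.76-fold (log2 difference -1.91 ± 0.19, adjusted p = 1.26e-05). COX10 did not pass, with 1146, 1425 and 1191 in treated cells and 842.8, 982.3 and 1024 in DMSO (log2 difference 0.40, adjusted p = 0.143). It passed as higher only when quantile normalization was confined to the named rows. COX11, which brings copper to the catalytic site, fell 2.80-fold with 973.2, 880.8 and 1067 with CX-4945 and 2861, 2769 and 2538 with DMSO (adjusted p = 3.12e-05). COX18, which helps insert the subunit COX2 into the membrane, was at 551.3, 1012 and 698.8 with CX-4945 and at 1620, 1707 and 1561 with DMSO, 2.23-fold lower (adjusted p = 0.00189). The groups did not overlap in any of these 3 falls.

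The copper chaperone COX17 fell by 0.54 on the log2 scale (adjusted p = 0.0193). Its call was lost without CX-4945 replicate 1 or 3 (0.0706 and 0.0509) and without DMSO replicate 1 or 3 (0.073 and 0.0925). SCO1, which passes copper on to COX2, had a log2 difference of 0.10, COX14 of 0.28 and COX19 of 0.47, and none of these passed. COX19 was close to background. SURF1, whose loss causes complex IV deficiency, had 6 rows, and its brightest gave -0.49 (adjusted p = 0.162), with the others between -0.66 and 0.30. Without CX-4945 replicate 2 the brightest SURF1 row passed (adjusted p = 0.0318).

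Of the nuclear-encoded complex IV subunits above background in at least 1 group, 5 of 10 fell and all 10 had log2 differences below 0 on the deposited scale (COX7A2 and COX5B changed sign under some alternatives). COX8A gave 14610, 23084 and 13746 with CX-4945, against 35414, 36700 and 36567 with DMSO. It fell 2.17-fold (log2 difference -1.12 ± 0.18, adjusted p = 5.36e-04). COX7B fell 2.09-fold, COX6C 1.84-fold and COX5A 1.67-fold, with adjusted p between 0.00206 and 0.00413. COX6B1 was at 9691, 10708 and 9500 with CX-4945 and 18284, 15432 and 14618 with DMSO, a fall of 1.61-fold (adjusted p = 0.00315). COX5B (log2 difference -0.06) did not pass.

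Several complex IV subunits exist as paralogs with tissue-restricted forms. All restricted forms but COX8C lay below background in both groups. COX4I1 was at 2801, 4097 and 3327 with CX-4945 and 4294, 3497 and 4186 with DMSO, and overlapped (adjusted p = 0.417). Its paralog COX4I2 was at 78.3, 56.2 and 42.3 with CX-4945 and 63.8, 36.2 and 48.3 with DMSO, below background. COX6A1 had 58051, 75295 and 57683 with CX-4945 and 72301, 71855 and 62992 with DMSO (log2 difference -0.13, adjusted p = 0.585). The muscle form COX6A2 lay between 46.9 and 53.3 with CX-4945 and between 40.3 and 66.2 with DMSO.

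COX7A2 had 4289, 5549 and 4055 in treated cells and 5267, 4671 and 4657 in DMSO (log2 difference -0.08), while the muscle form COX7A1 was at 50.4, 35.1 and 33.8 with CX-4945 and 53.8, 31.0 and 34.2 with DMSO. Neither passed, and both pairs of groups overlapped. The testis forms COX6B2 (11.1 to 14.2 with CX-4945 and 13.6 to 19.2 with DMSO) and COX7B2 (53.1 to 65.4 and 50.6 to 71.6) were below background as well. COX8C was above it, at 193.9, 152.1 and 210.9 with CX-4945 and 263.3, 165.2 and 256.5 with DMSO, and overlapped. COX7A2L, a relative of COX7A2 that joins complexes III and IV into supercomplexes, was at 14737, 18279 and 14378 with CX-4945 and 21457, 21472 and 20093 with DMSO. It fell 1.34-fold (adjusted p = 0.0449), a call lost on leaving out any array but CX-4945 replicate 2 (0.0968 to 0.174).

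Complex V, the ATP synthase, fell in 9 of 16 measured subunits and in its inhibitor. ATP5MC1, ATP5MC2 and ATP5MC3 all encode subunit c, the proton-carrying ring of the rotor, and after their import sequences are cut off they give the same protein. They did not move alike. ATP5MC1 had 7448, 10870 and 6600 with CX-4945, against 81753, 79951 and 78686 with DMSO, a fall of 9.87-fold (log2 difference -3.30 ± 0.17, adjusted p = 6.35e-08). ATP5MC2 had 10695, 20370 and 13295 with CX-4945, against 44784, 47827 and 45012 with DMSO, a fall of 3.22-fold (log2 difference -1.69 ± 0.20, adjusted p = 4.32e-05). ATP5MC3 had 5695, 8467 and 6652 with CX-4945 and 5871, 6508 and 5578 with DMSO, and overlapped (log2 difference 0.20 ± 0.17, adjusted p = 0.497). Within arrays the ATP5MC1 row moved against the ATP5MC3 row by a log2 difference of -3.50 ± 0.14 and against the ATP5MC2 row by -1.62 ± 0.15, and the ATP5MC2 row against the ATP5MC3 row by -1.88 ± 0.11. In all 3 pairs the treated and DMSO arrays did not overlap.

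The promoter of ATP5MC1 is shown because this gene had the deepest fall among the structural subunits. It lies at chr17:48892537-48892836, plus strand (RefSeq, GRCh38.p14), and its capitals mark a cAMP response element. Of the 52 matched members 2 hold this element (3.85%, against 1.85% of all promoters and 2.26% of those of protein-coding genes).
ATP5MC1: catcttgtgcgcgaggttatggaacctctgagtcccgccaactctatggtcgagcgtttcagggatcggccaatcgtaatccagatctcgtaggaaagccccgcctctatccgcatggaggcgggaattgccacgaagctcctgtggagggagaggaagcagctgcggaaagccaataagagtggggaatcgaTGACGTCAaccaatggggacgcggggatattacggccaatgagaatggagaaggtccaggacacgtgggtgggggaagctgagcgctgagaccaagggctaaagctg

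**Figure D3:**
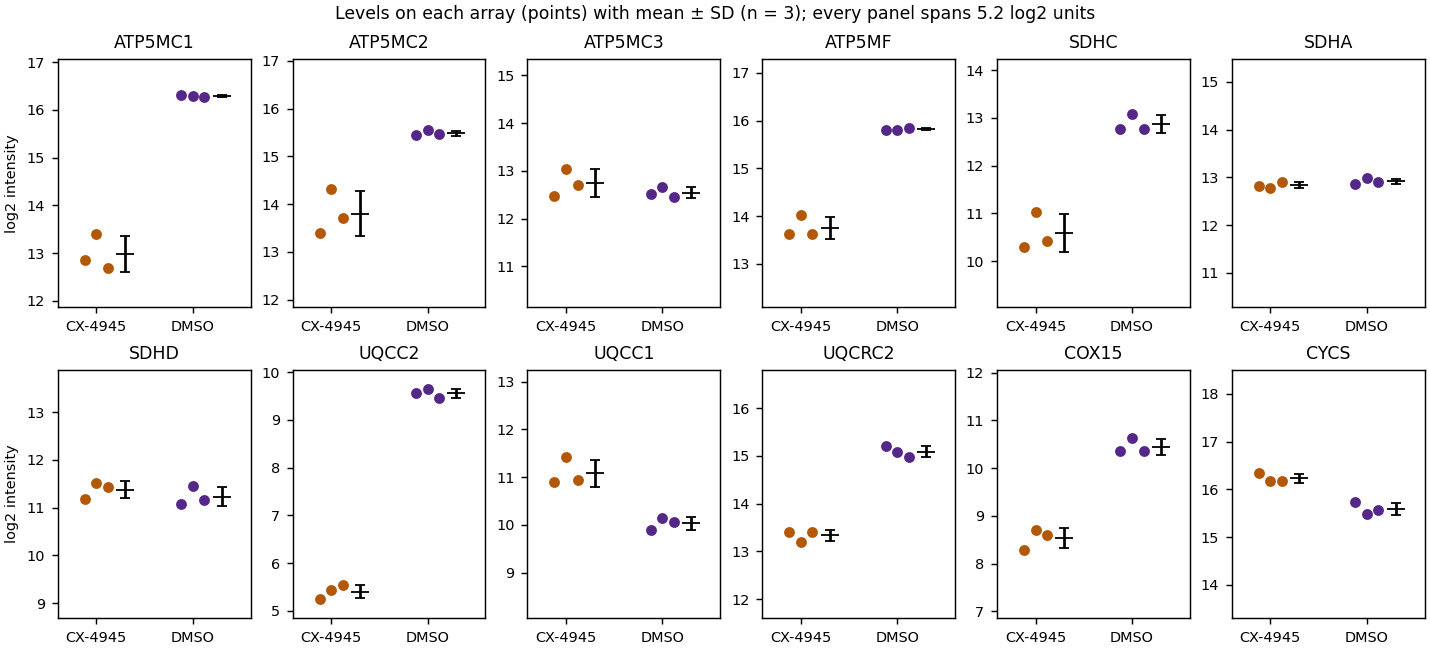
Log2 intensity of 12 members on each array (points), with the mean ± SD of 3 arrays beside them, CX-4945 on the left and DMSO on the right of each panel. ATP5MC1 and ATP5MC2 are lower on all treated arrays while ATP5MC3 overlaps, SDHC is lower while SDHA and SDHD overlap, and UQCC2 and UQCC1 move in opposite directions.

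Other subunits of the membrane part and the outer stalk were mixed. ATP5MF, subunit f of the membrane part, had 12597, 16590 and 12577 with CX-4945 and 57288, 57138 and 59115 with DMSO, a fall of 4.19-fold (adjusted p = 4.66e-07). ATP5PD, subunit d of the outer stalk, fell 3.20-fold, with 6649, 8608 and 6266 in treated cells and 24189, 21483 and 22608 in DMSO (adjusted p = 5.69e-06). The outer stalk subunits ATP5PF (coupling factor F6, 1.73-fold) and ATP5PB (subunit b, 1.67-fold) also fell, as did ATP5MG (subunit g, 1.64-fold). ATP5MGL, a gene similar in sequence to ATP5MG, fell by 0.72 on the log2 scale (adjusted p = 0.0375), and its signal may be shared with ATP5MG. That call was lost without CX-4945 replicate 1 or 3 (0.0916 and 0.085) and without DMSO replicate 1 or 2 (0.173 and 0.0754). ATP5PO, the stalk subunit that grips the head, did not pass (log2 difference -0.23), nor did ATP5MJ (0.04) or ATP5ME (0.05), small membrane subunits.

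Of the 4 measured subunits of the catalytic head and central stalk, 1 fell. ATP5F1B, the catalytic beta subunit, was at 209860, 247260 and 211811 with CX-4945 and 283001, 286217 and 228453 with DMSO, and did not pass (log2 difference -0.25 ± 0.11, adjusted p = 0.148). ATP5F1A, the alpha subunit, gave -0.43 ± 0.17 (adjusted p = 0.108) and ATP5F1D, the delta subunit, 0.33 (0.309). ATP5F1C, the gamma subunit that turns inside the head, fell 1.45-fold (adjusted p = 0.0228). Its call was lost without CX-4945 replicate 1 or 3 (0.0824 and 0.105) and without DMSO replicate 2 or 3 (0.0837 and 0.0992). Without CX-4945 replicate 2, ATP5F1A (adjusted p = 3.41e-04), ATP5F1B (0.019) and ATP5PO (0.0213) passed as lower. With all arrays kept, ATP5F1A and ATP5F1B also passed with equal array medians and with array weights, but not under the other alternatives. ATP5IF1, the inhibitor that stops the synthase from running backwards and burning ATP, had 1250, 1285 and 1459 with CX-4945 and 3026, 3701 and 2782 with DMSO, a fall of 2.37-fold (log2 difference -1.24 ± 0.17, adjusted p = 1.89e-04).

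CYCS, which encodes cytochrome c, the carrier between complexes III and IV and a trigger of apoptosis when released into the cytosol, rose. It was at 83471, 74329 and 73594 with CX-4945 and at 54548, 45770 and 48795 with DMSO, 1.55-fold higher (log2 difference 0.64 ± 0.12, adjusted p = 0.00142) with no overlap. With UQCC1 it was the only member higher past the test, and both calls held under all 16 alternatives tried. Its promoter is shown as that of the carrier gene that rose, at chr7:25125211-25125510, minus strand (RefSeq, GRCh38.p14). No exact match to the 4 motif strings searched is in this window. Sites that depart from these strings were not searched for, so binding sites may still be present.
CYCS: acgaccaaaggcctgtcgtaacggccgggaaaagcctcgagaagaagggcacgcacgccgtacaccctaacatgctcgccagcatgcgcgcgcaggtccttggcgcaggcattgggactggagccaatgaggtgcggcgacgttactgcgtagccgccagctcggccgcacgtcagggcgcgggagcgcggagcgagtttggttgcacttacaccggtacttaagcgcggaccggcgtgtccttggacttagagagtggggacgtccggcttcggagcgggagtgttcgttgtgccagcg

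Medians of DMSO intensity and gene span were higher in the members that fell than in the others. The DMSO level enters the difference that defines a fall, and rows of higher intensity were called more often. That level is therefore not independent of the calls. Among the 60 members above background in at least 1 group, the 29 that fell had a median DMSO log2 intensity of 14.2 and a median gene span of 13.3 kb, whereas the 31 others had 11.4 and 7.81 kb. Intensities of different rows also depend on their probes, so these are descriptions without a test, and whether level or span plays a part in the falls was not tested. No member below background in both groups was called by limma, 0 of 6, and none had an unadjusted p under 0.05. SDHAF1 was the single one of the 6 whose groups did not overlap. The shares of all genes below background that were called or did not overlap were not counted. These counts therefore have no background beside them and say nothing particular of the members.

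Lists of other mitochondrial genes were set beside the members. Of 33 measured complex I subunits 14 were lower (42.4%) and 1 higher, with a median log2 difference of -0.38, led by NDUFB1 (6.26-fold) and NDUFB5 (5.08-fold), accessory subunits of the membrane arm. Of 21 measured assembly factors of complexes III to V whose names lie outside the pattern, 12 were lower (57.1%) and 2 higher, with a median of -0.70. PET100 (log2 difference -2.73) and COA3 (-2.99), both needed to build complex IV, had the smallest p among them. In the citric acid cycle 5 of 11 were lower and none higher (none at an unadjusted p under 0.05 either), led by SUCLG2 (-2.23), a subunit of succinyl-CoA ligase, and DLD (-1.31), a shared subunit of the 2-oxoacid dehydrogenases; the median was -0.17. With quantile normalization over named rows, 10 of the assembly factors were lower and 4 higher. These comparisons use the same 6 arrays, and differences between the lists were not tested.

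Of 8 measured genes of the mitochondrial DNA, 3 rose and none was called lower by limma (none at an unadjusted p under 0.05), and the median log2 difference was -0.07. This depended on the scaling, since with equal array medians 2 were lower and 3 higher, with a median of -0.20. ND2 (log2 difference 0.75 ± 0.12, adjusted p = 4.79e-04) and ND3 (0.69 ± 0.15, adjusted p = 0.00471), subunits of complex I, rose. The mitochondrially encoded partners of the members, CYTB of complex III (log2 difference -0.05) and COX1 (-0.09) and COX2 (-0.15) of complex IV, did not pass. Group means of these 3 rows were 18.8 to 19.4 on the log2 scale, against 14.7 to 17.1 for ND2 and ND3. Whether the arrays still respond in full at such levels was not tested. Among 13 regulators of respiratory genes, 2 rose and 1 fell, while 1 rose and 2 fell with either scaling over all rows. With either filter on dim genes or with array weights 3 rose and 2 fell. Without CX-4945 replicate 2 the counts were 2 and 2, so calls near the threshold depended on the setting. PPARGC1A, a coactivator known to induce mitochondrial genes, fell by 1.39 on the log2 scale (adjusted p = 4.16e-04), and TFB2M, a factor of mitochondrial transcription, rose by 0.96 (adjusted p = 2.37e-04). NRF1 (-0.50, adjusted p = 0.0679), GABPA (-0.03), TFAM (-0.05) and ESRRA (0.15) did not pass.

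**Figure D4:**
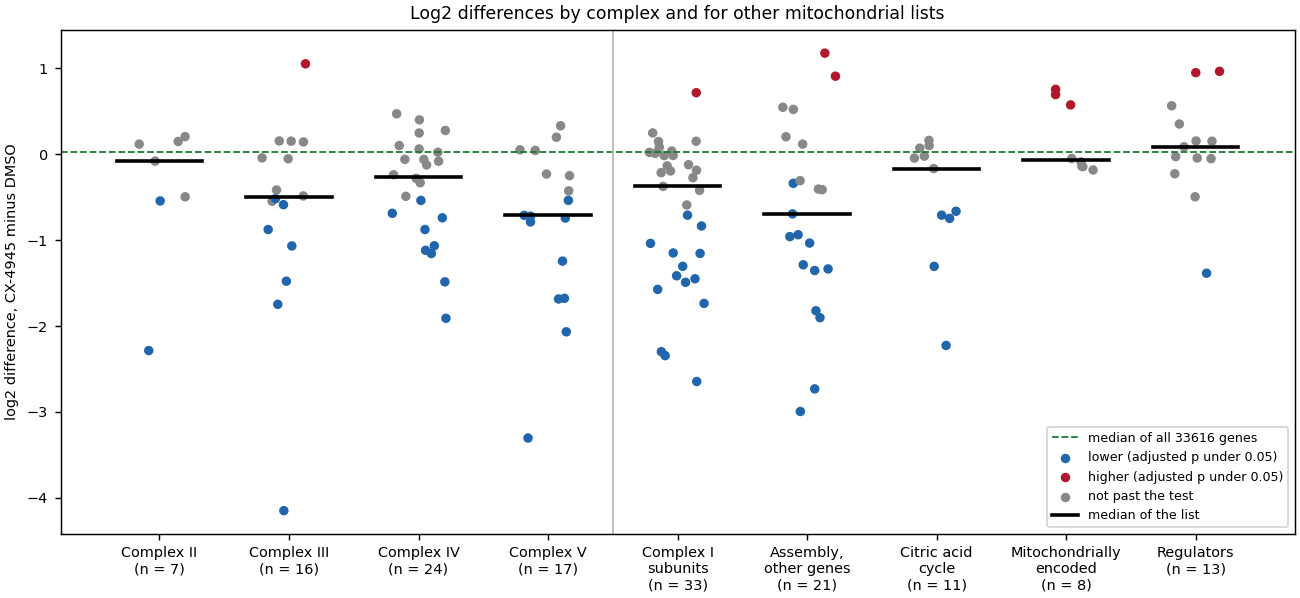
Log2 differences (CX-4945 minus DMSO, vertical axis) of single genes (points) in complexes II to V (left of the grey line) and in other mitochondrial lists (right), with the median of each list as a bar. Medians run from -0.71 in complex V to -0.08 in complex II, and the mitochondrially encoded genes have 3 rises and a median of -0.07.

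Markers of the line and of other cell types were examined on the same arrays. Of 9 measured adrenocortical markers 7 lay above background in each group, and 6 were lower and 1 higher with CX-4945. Their summed intensity was 66030 to 97530 with CX-4945 against 292200 to 337200 with DMSO. SCARB1, the brightest of them (mean log2 intensity 15.9 with CX-4945 and 17.8 with DMSO), made up most of that sum. The markers did not move alike. CYP11A1 had a log2 difference of -6.33, CYP17A1 of -4.69 and SCARB1 of -1.94, while CYP21A2 rose by 0.83. INHA and MC2R did not pass. Of the other lists, above background were 1 of 5 adrenal medulla markers, 3 of 5 fibroblast markers and 1 of 6 endothelial markers in each group (VWF), and 2 of 5 leukocyte markers with CX-4945 against 1 with DMSO. Summed leukocyte markers were 414.2 to 536.8 with CX-4945 and 280.4 to 351.6 with DMSO, with CD14 higher and CD68 higher but below background in both groups. CD3E, above background in both, had a log2 difference of -0.41 and the pan-leukocyte marker PTPRC, below it in both, one of -0.16, and neither passed. Summed medulla markers were 427.6 to 483.5 with CX-4945 and 991.3 to 1335 with DMSO, with CHGB lower, while TH and DBH were below background in both. Summed fibroblast markers were 1767 to 3504 with CX-4945 and 2285 to 3379 with DMSO, with DCN higher and the 4 others between -0.60 and -0.12 on the log2 scale without passing (list median -0.21). Summed endothelial markers were 207.5 to 240.8 and 198.2 to 255.9, with PECAM1 and CDH5 below background. The part of these shifts in the members' values was not tested.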

How the data were processed

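RNA of H295R cells was measured on 6 arrays, grouped by the sample titles. Per the submitters' processing notes the authors used Affymetrix Expression Console; its version is not given in the sources used here, nor are normalization, background correction and genome build. Deposited values were linear intensities, 1 per row and array, with array medians from 40.7 to 46.5 over 135750 rows, and were used as values the authors had already normalized. Their log2 was used with no pseudocount or filter. A platform table gave 36176 rows a single symbol and 1119 rows several; the brightest row stood for each of 33616 genes. RefSeq (GRCh38.p14) gave biotypes, spans and promoters, and changed 0 symbols.

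The groups were tested two-sided by limma 3.58.1 (intensity trend, 4 residual degrees of freedom; R 4.3.3), and p-values were adjusted across all genes (Benjamini-Hochberg); errors of log2 differences are SEs of the fit. The number of arrays limits the precision. The fit was tested on simulated data. Members and lists were chosen with earlier results of these data known. Every member was named. Values on every array were given for the 4 called members with the smallest adjusted p per complex, for rises and for most members of paralog families. Of the paralogs COX6A2, COX6B2 and COX7B2 were given as ranges and COX7B as a fold. Some other members were added after their values were seen. Of the other lists, the 2 members with the smallest p were given, and further genes named from them were chosen after their values were seen. No batch information was used here. Alternatives were 2 scalings over all rows, the same 2 over named rows (chosen after seeing the data), no trend, 2 filters, the mean of rows, a replicate block, array weights and leaving out each array. Figures were drawn with matplotlib 3.10.9.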

Additional observations from a re-analysis of the deposited data

How the results depend on the processing

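Of the 29 members called lower, 22 kept the call in each of the 16 alternatives, and the calls of SDHAF3, UQCR10, UQCRB, COX17, ATP5MGL, ATP5F1C and COX7A2L were lost in some. Both rises kept theirs, and no called member changed sign. Of the 35 others, 8 passed in at least 1 alternative. Members lower numbered 25 to 33 over the alternatives that kept all arrays and 22 to 35 on leaving out 1 array, with 2 higher in each case except 3 with quantile normalization over named rows. Of all genes tested 11.6% to 24.4% were lower over the former alternatives and 9.87% to 14% over the latter. Complex II members lower fell to 1 with either scaling over named rows, and numbered 1 to 2 on leaving out 1 array. Its median log2 difference was -0.21 with equal array medians and -0.29 with either filter on dim genes. The complex III median was -0.63 with equal medians, and -0.61 to -0.37 on leaving out 1 array. The complex IV median was -0.39 with equal medians and -0.51 with either filter, which removes 6 dim members of that complex. All genes called numbered 5865 to 8921 on leaving out 1 array.

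Whether the replicate numbers pair the samples cannot be settled here. Same-numbered arrays deviated from their group means with correlations of 0.0925, 0.0896 and -0.035, and arrays of different numbers with -0.141 to 0.0546. CX-4945 replicate 3 correlated best with another number. Deviations within a group of 3 arrays depend on one another, so these correlations cannot decide the question. With the replicate block, 29 members were lower and 2 higher, and 8058 genes were called, against 7665 without it. Dim members limit what can be seen, since 6 lay below background in both groups.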

Other observations

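The 93 pseudogenes that match the same name pattern were not used above. Of these, 20 were lower (21.5%) and 1 was higher, whereas of all 10391 genes annotated as pseudogenes 3.60% were lower and 9.02% higher. Only 34 of the 93 lay above background in at least 1 group. Neither these shares nor those by parent below were matched on intensity. Of the 62 pseudogenes whose parent gene was called lower, 17 were lower and none higher (1 at an unadjusted p under 0.05), and of the 24 whose parent was not called, none was lower (3 at an unadjusted p under 0.05) and 1 was higher. Of the 7 whose parent (ATP5F1E, ATP5MK, COX7C or UQCRFS1) is not among the members, 3 were lower. No difference between these shares was tested, and 12 of the 17 falls were copies of 3 genes. Copies of ATP5MC1 were lower in 5 of 7 cases (median log2 difference -1.53), those of ATP5MC2 in 3 of 3 (-1.27) and those of ATP5PD in 4 of 4 (-0.93), whereas none of 17 copies of COX6C passed by limma (1 was higher at an unadjusted p under 0.05). ATP5G1P8, a copy of ATP5MC1, had a log2 difference of -2.39 ± 0.19 (limma adjusted p = 2.19e-06), with mean log2 intensities of 9.01 with CX-4945 and 11.4 with DMSO. ATP5F1AP10, a copy of ATP5F1A, was the pseudogene that rose, with a log2 difference of 1.12 and means below background in both groups. Copies were assigned to parents by name after the values were seen, and how much of their signal comes from the parent's RNA was not tested.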
